A study of Mus musculus with 12 samples.

Results

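Trailers of glycine tRNA genes are the short RNAs that lie just behind the 3′ end of a glycine tRNA in its precursor. Sequenced trailers are listed in the read table under the class tRF-1. All distinct tRF-1 sequences were taken whose every listed nuclear precursor was pre_tRNA-Gly-TCC, pre_tRNA-Gly-CCC or pre_tRNA-Gly-GCC, the isodecoders for the 3 glycine anticodons. The choice used names and class only, and no read count. It gave 89 of 87699 distinct sequences, with 493 of 1705883 reads. These were 0.852% of the 57876 nuclear tRF-1 reads and 0.0289% of all tRNA reads. The mitochondrial glycine tRNA has a trailer class of its own (7 sequences, 383 reads), which was not included.

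Small RNAs of 14 to 40 nt were sequenced from livers of male B6D2F1/Crl mice aged 8 to 12 weeks, after a pretreatment that removed terminal blocks and m1A and m3C methyl groups. NS-KO mice carried a CRISPR/Cas9 deletion in exon 2 of NSun2, an enzyme that writes 5-methylcytosine in tRNAs, and WT mice had intact NSun2. Livers were taken at D0 after corn oil alone, at D3 after a single injection of carbon tetrachloride (CCl4), a hepatotoxin, and at D27 after repeated injections, as 40% CCl4 in corn oil at 2 mL/kg into the peritoneum. There were 2 libraries in each of the 6 groups, namely NS-KO D0, NS-KO D3, NS-KO D27, WT D0, WT D3 and WT D27, and the labels give no further detail on which mice they came from. D0 livers differ from D3 and D27 livers both in CCl4 and in day. p-values therefore measure the spread between these libraries. The table holds tRNA reads only, so neither the loss of NSun2 transcript nor liver marker genes could be looked up. In whole liver, fewer cells of a type and less RNA per cell cannot be told apart.

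RNA polymerase III starts a tRNA transcript a few bases upstream of the mature tRNA and stops in a run of T in the DNA, which becomes a U tail in the RNA. The La protein binds that tail. RNase P removes the leader at the 5′ end and RNase Z cuts behind the tRNA, which sets free the trailer, and CCA is then added to the tRNA. A trailer thus begins at the base after the tRNA and ends in the T run, and since trailers differ between gene copies whose mature tRNAs are alike, a trailer can name the single gene it was read from. Glycine tRNAs are known as a major source of tRNA 5′ fragments in many tissues.

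The libraries held 46937 to 275568 reads, so 1 read stood for 3.63 to 21.3 counts per 1000000 reads (CPM). A count of 0 allows up to 3 reads, or 10.9 to 63.9 CPM, by counting error alone. Glycine trailers were thus measured with 6 to 178 reads per library, and reads per library are given throughout. Replicates are listed as replicate 1 and replicate 2.

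Of 25 glycine tRNA genes in the table (6 Gly-TCC, 6 Gly-CCC and 13 Gly-GCC), 9 had trailer reads, Gly-TCC-2-1 among them only through a sequence shared with Gly-TCC-1-6, and 5 had at least 10. 22 of the 25 lay exactly on a tRNA gene of RefSeq's GRCm38.p6 annotation, by which locations are given here. Gly-CCC-2-1 lies at chr3:96351167-96351237, within the spans of the long noncoding RNA genes Platr30 and Gm26553. Gly-CCC-3-1 lies at chr3:96424033-96424103 and Gly-TCC-1-6 at chr3:96501009-96501080, both outside other annotated genes. A group on chromosome 1 sits beside the Fc receptor gene Fcgr3. It comprises Gly-GCC-1-1 at chr1:171066631-171066701, 716 bp from Fcgr3, Gly-GCC-2-1 at chr1:171044985-171045055, 6114 bp from it, and Gly-TCC-1-2 at chr1:171064699-171064770, within its span. Gly-TCC-1-7 lies at chr11:69041278-69041349, 4275 bp from Aurkb, and Gly-GCC-2-8 at chr13:23517203-23517273, 13771 bp from the histone gene H4c8. The files do not give strands, and these are spans of genes, not exons.

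The 40 bases behind the tRNA are printed for the genes with 5 or more trailer reads of their own, with runs of at least 4 T in capitals, because the reads ended in these runs. All are 5′ to 3′ on the precursor's strand, as the deposited precursor sequences give them.
Gly-TCC-1-7: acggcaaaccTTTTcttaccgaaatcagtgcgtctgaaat
Gly-TCC-1-6: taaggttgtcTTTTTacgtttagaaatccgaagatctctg
Gly-TCC-1-2: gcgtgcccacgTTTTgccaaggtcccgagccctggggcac
Gly-CCC-2-1: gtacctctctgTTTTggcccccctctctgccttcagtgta
Gly-CCC-3-1: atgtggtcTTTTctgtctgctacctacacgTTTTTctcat
Gly-GCC-1-1: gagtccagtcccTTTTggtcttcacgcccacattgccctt
Gly-GCC-2-8: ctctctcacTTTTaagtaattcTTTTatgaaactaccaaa
Gly-GCC-2-1: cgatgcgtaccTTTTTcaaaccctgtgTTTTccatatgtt
Apart from the T run these trailers share little, and trailers of genes with the same mature anticodon differ in sequence. For contrast, a pair of genes without trailer reads had the T run so early that a trailer ending there would be shorter than the shortest read kept.
Gly-TCC-1-5: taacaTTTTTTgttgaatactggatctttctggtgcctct
Gly-CCC-1-1: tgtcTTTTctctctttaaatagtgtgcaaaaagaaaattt

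A run of at least 4 T (TTTT or longer, read on the precursor's strand only, neighbouring T joined into 1 run) occurred within the 40 bases in 24 of 25 glycine genes (96.0%), against 365 of all 439 nuclear precursors (83.1%). Some such run ended at base 14 or later in 18 of 25 glycine genes (72.0%), against 247 of 439 precursors (56.3%). It did so in 9 of 9 glycine genes with trailer reads and in 9 of 16 without (56.2%). The other nuclear precursors gave 99 of 113 with tRF-1 reads (87.6%) and 130 of 301 without (43.2%). Reads under 14 nt were not kept, so a gene whose trailer ends before base 14 cannot show reads here, and the 16 genes without reads are not shown to lack a trailer.

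Of the 89 sequences, 88 were listed under a single gene, and 1 sequence with 1 read was listed under both Gly-TCC-1-6 and Gly-TCC-2-1. A single read supported 53 sequences, and 11 had at least 10 reads. The 10 or more reads of each of the following make them the core of the measurement, shown with bases of the T run in capitals and any mismatched last base in capitals too.
Gly-CCC-2-1, 75 reads: gtacctctctgTTT
Gly-TCC-1-7, 63 reads: acggcaaaccTTTT
Gly-CCC-2-1, 44 reads: gtacctctctgTTTT
Gly-TCC-1-6, 40 reads: taaggttgtcTTTT
Gly-GCC-2-8, 37 reads: ctctctcacTTTTaagtaattcTTT
Gly-GCC-1-1, 22 reads: gagtccagtcccTTT
Gly-TCC-1-7, 22 reads: acggcaaaccTTTA
Gly-GCC-1-1, 14 reads: gagtccagtcccTTTT
Gly-CCC-2-1, 13 reads: gtacctctctgTTTA
Gly-CCC-2-1, 11 reads: gtacctctctgTTA
Trailers of a gene thus differed mainly in how many T they kept and in their last base.

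Nearly all glycine trailers ended within a T run, at 487 of 493 reads (98.8%), and 424 reads (86.0%) were 14 to 16 nt long. Gly-TCC-1-7 had 109 reads of 14 nt and 2 of 15 nt. Gly-TCC-1-6 had 57 reads of 14 nt and 17 of 15 nt, the shared sequence included. Gly-CCC-2-1 gave 102 reads of 14 nt, 70 of 15 nt and 2 of 16 nt. Gly-GCC-1-1 gave 30 reads of 15 nt, 24 of 16 nt and 1 of 17 nt. In these 4 genes the reads sat at the length minimum or just above it, so shorter ends in the same run would have been missed. Gly-GCC-2-8 differed, because its first T run ends at base 13, and its reads ran through that run to a second one and had 24 nt (5 reads), 25 nt (51 reads) or 26 nt (6 reads). Gly-CCC-3-1, whose early run ends before base 14 too, had 5 of 6 reads at 33 nt. Reads that stop in the early run of either gene could not have been seen.

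**Figure D1:**
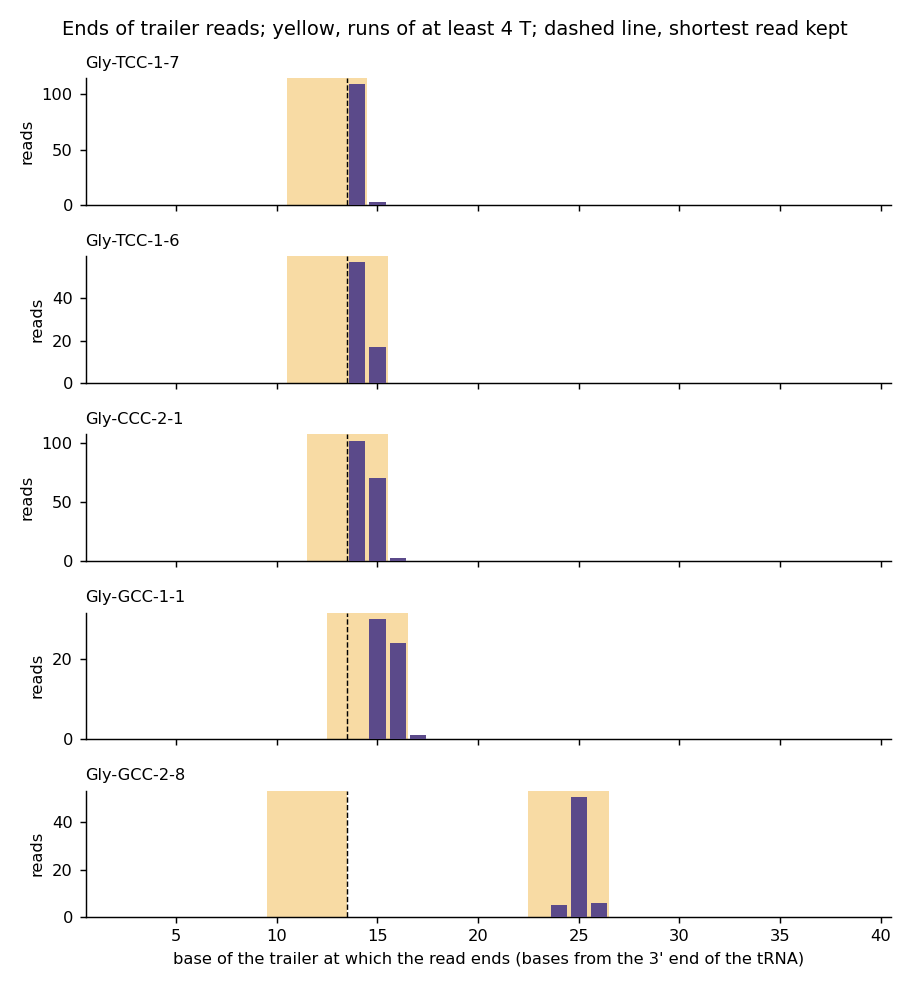
Number of tRF-1 reads (vertical axis) by the base of the trailer at which they end, counted from 1 at the base after the tRNA (horizontal axis), over all 12 libraries for the 5 glycine genes with at least 10 reads. Yellow bands are runs of at least 4 T and the dashed line is the shortest read kept. Reads of 4 genes end in the first run, and those of Gly-GCC-2-8 end in the second run, at bases 24 to 26.

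Mismatches gathered at the last base. Of the 493 reads, 318 (64.5%) had no mismatch, 123 (24.9%) differed from the gene in the last base only, and 52 (10.5%) differed inside. The change at the last base was T to A in 66 reads, T to C in 49 and T to G in 5. Other nuclear tRF-1 reads had 68.8% without a mismatch, 19.9% with a changed last base and 11.3% with one inside. Whether a changed last base is an added base or a sequencing error was not tested.

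The isodecoders had 190 reads for Gly-TCC, 180 for Gly-CCC and 123 for Gly-GCC, and each came from few genes. Gly-CCC-2-1 alone gave 174 reads (35.3% of all), Gly-TCC-1-7 gave 111, Gly-TCC-1-6 gave 73, Gly-GCC-2-8 gave 62 and Gly-GCC-1-1 gave 55. Gly-CCC-3-1 and Gly-GCC-2-1 had 6 reads each and Gly-TCC-1-2 had 5.

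**Figure D2:**
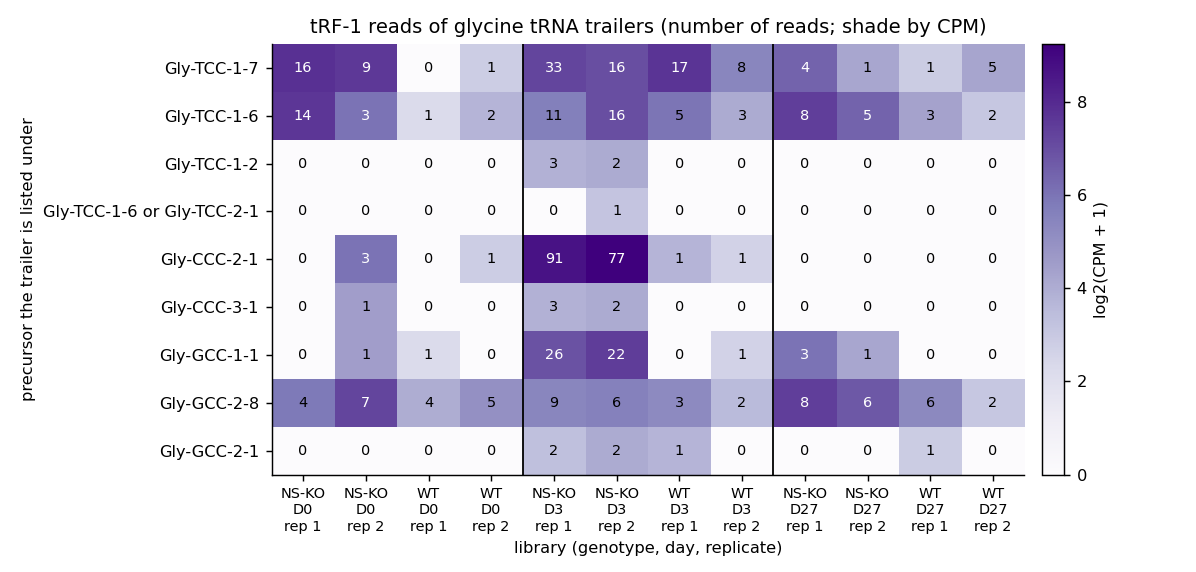
Heat map of tRF-1 reads by glycine precursor (rows) and library (columns, by genotype, day and replicate); the number in each cell is the read count and the shade is log2(CPM + 1). Gly-CCC-2-1 and Gly-GCC-1-1 are darkest in the NS-KO D3 libraries, with 91 and 77 and with 26 and 22 reads, while Gly-TCC-1-7 has reads in 11 of the 12 libraries.

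Gly-CCC-2-1 was read almost only in NS-KO livers at D3. It had 91 and 77 reads there (411 and 605 CPM), against 1 and 1 in WT D3 livers (12.3 and 5.17 CPM). At D0 it had 0 and 3 reads in NS-KO livers and 0 and 1 in WT livers, and at D27 no read in any of the 4 livers. The groups did not overlap at D3, and the reads of both NS-KO D3 libraries made up 168 of the 174. Pooled over libraries, its level was 66.2-fold higher in NS-KO than in WT at D3 (exact 95% interval of the counts 18 to 551, counting error only), and 18.9-fold higher in NS-KO D3 than in NS-KO D0 livers (6.36 to 92.6). Against NS-KO D27 livers it was at least 16.8-fold higher, with 3 reads allowed over that group. PCR reads without molecular identifiers are not independent molecules, so such intervals are too narrow.

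Gly-GCC-1-1 followed a like course at a lower level. It had 26 and 22 reads in NS-KO D3 livers (117 and 173 CPM), against 0 and 1 in WT D3 livers (0 and 5.17 CPM). NS-KO livers had 0 and 1 reads at D0 and WT livers 1 and 0. At D27 there were 3 and 1 reads in NS-KO livers and none in WT livers. Over libraries, the NS-KO D3 level was 37.8-fold that of WT D3 (48 reads against 1, exact 95% interval 6.47 to 1525), and 3.6-fold that of NS-KO D27 (1.32 to 13.7). Gly-CCC-2-1 and Gly-GCC-1-1 lie on different chromosomes and end their trailers in a run of 4 T each.

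Both Gly-TCC genes were read at all 3 times. Gly-TCC-1-7 had 16 and 9 reads in NS-KO D0 livers (226 and 192 CPM), against 0 and 1 in WT D0 livers (0 and 6.19 CPM). In D3 livers it had 33 and 16 reads in NS-KO (149 and 126 CPM), against 17 and 8 in WT (209 and 41.4 CPM), so that the groups overlapped. At D27 the counts were 4 and 1 in NS-KO (85.2 and 17.4 CPM) and 1 and 5 in WT (6.39 and 18.1 CPM), again with overlap. The genotypes were thus apart at D0 alone for this gene, and for Gly-CCC-2-1 at D3.

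Gly-TCC-1-6 stood higher in NS-KO at D0 and D27. It had 14 and 3 reads in NS-KO D0 livers (198 and 63.9 CPM), against 1 and 2 in WT D0 livers (3.75 and 12.4 CPM). D3 livers gave 11 and 16 reads in NS-KO (49.7 and 126 CPM), against 5 and 3 in WT (61.3 and 15.5 CPM). D27 livers gave 8 and 5 in NS-KO (170 and 86.9 CPM), against 3 and 2 in WT (19.2 and 7.26 CPM). The groups overlapped at D3 only, and there not on the TMM-scaled log2 CPM of the fits described further on (5.98 and 7.03 in NS-KO, 5.84 and 5.19 in WT).

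Gly-GCC-2-8, the gene with the long trailer, was the most even. It had 4 and 7 reads in NS-KO D0 livers (56.5 and 149 CPM), against 4 and 5 in WT D0 livers (15.02 and 31.0 CPM). At D3 it had 9 and 6 reads in NS-KO (40.6 and 47.1 CPM), against 3 and 2 in WT (36.8 and 10.3 CPM). At D27 it had 8 and 6 in NS-KO (170 and 104 CPM), against 6 and 2 in WT (38.3 and 7.26 CPM). In CPM by library total NS-KO lay above WT without overlap at each time, but on the TMM-scaled log2 CPM the D0 libraries overlapped (5.79 and 6.88 in NS-KO, 5.49 and 5.93 in WT).

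The remaining genes had few reads, most of them in NS-KO D3 livers. All 5 reads of Gly-TCC-1-2 were there (3 and 2), as were 5 of 6 reads of Gly-CCC-3-1 (3 and 2, with 1 read in an NS-KO D0 library) and 4 of 6 of Gly-GCC-2-1 (2 and 2, with 1 each in a WT D3 and a WT D27 library). These counts allow no comparison beyond their order.

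As a share of all tRNA reads, glycine trailers were higher in NS-KO than in WT livers at each time. The share was 0.0480% and 0.0511% in NS-KO D0 livers, against 0.00225% and 0.00557% in WT D0 livers. At D3 it was 0.0804% and 0.113% in NS-KO, against 0.0331% and 0.00776% in WT. At D27 it was 0.0490% and 0.0226% in NS-KO, against 0.00702% and 0.00327% in WT. The groups did not overlap at any time. Over days NS-KO averaged 0.0607% ± 0.0315 and WT 0.00983% ± 0.0116 (SD, n = 6 each), a difference of 0.0509 percentage points (exact permutation of genotype within days, two-sided, p = 0.009259, the smallest that 2 libraries per group at 3 times can give). The class of 5′ fragments named tRF-5c made up 12.5% to 30.4% of reads in NS-KO and 35.6% to 71.5% in WT libraries, and it enters the denominator of this share.

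The share among tRF-1 reads leaves that class out, and it too was higher in NS-KO. It was 0.568% and 0.485% in NS-KO D0 livers, against 0.139% and 0.255% in WT D0 livers. At D3 it was 1.90% and 2.33% in NS-KO, against 0.439% and 0.311% in WT. At D27 it was 0.985% and 0.404% in NS-KO, against 0.271% and 0.308% in WT. NS-KO averaged 1.11% ± 0.813 and WT 0.287% ± 0.0973 (SD, n = 6 each), a difference of 0.824 points (exact permutation p = 0.009259, Benjamini-Hochberg adjusted 0.009259 over both shares). Gly-CCC-2-1 made up 51.1% and 53.5% of glycine trailer reads in the NS-KO D3 libraries. Without Gly-CCC-2-1 and Gly-GCC-1-1 the difference was 0.328 points (exact permutation p = 0.009259) of tRF-1 reads and 0.0269 points (p = 0.01852) of all reads. Glycine trailers thus made up a larger part of all trailers in NS-KO than in WT livers. Of the 57876 tRF-1 reads, Met-CAT gave 25755 and Arg-ACG 10534, each with a log2 change of 0.18 over days in the fits described below. There 12 of 20 other tRF-1 sums rose and 0 fell. Asp-GTC (2.57), Gln-CTG (2.40) and Ile-AAT (2.07) rose more than any glycine sum. A gain in share was therefore not shown to be particular to glycine.

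**Figure D3:**
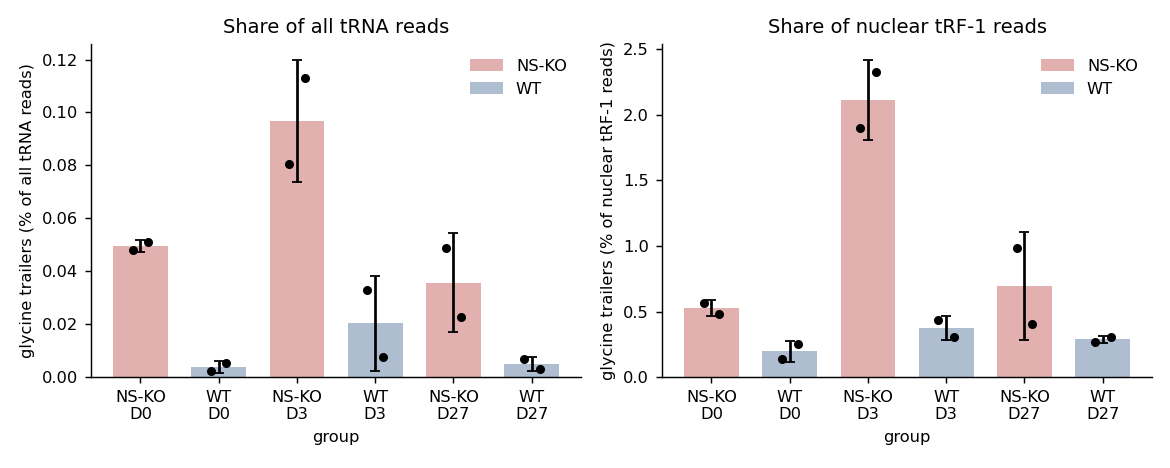
Glycine trailer reads as a percentage of all tRNA reads (left) and of nuclear tRF-1 reads (right) by group; bars are means, points the 2 libraries of a group and error bars 1 SD. NS-KO bars lie above their WT bars at each time, with the highest at NS-KO D3 (2.11% of tRF-1 reads, against 0.375% in WT D3).

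The sums by isodecoder were then fitted with limma, on log2 CPM, together with all other sums of reads by class and isodecoder, of which 281 had enough reads to be tested. To be tested, a sum had to reach 70.4 CPM in at least 2 libraries. Gly-CCC and Gly-GCC did so in NS-KO libraries only and Gly-TCC in 6 NS-KO libraries and 1 WT library, so how many glycine sums passed is no result in itself. Over the 3 days the log2 fold change of NS-KO over WT was 1.64 ± 0.32 for Gly-TCC (SE, adjusted p = 0.003367) and 1.43 ± 0.31 for Gly-GCC (adjusted p = 0.005157). Gly-CCC had 1.77 ± 0.34, given with no p because 173 of its 180 reads lay in the NS-KO D3 libraries. With a filter on total reads alone, which does not look at groups, Gly-TCC had 1.62 (adjusted p = 0.003678) and Gly-GCC 1.42 (adjusted p = 0.005772). Gly-CCC had 1.76, but NS-KO D3 reads made up most of its total, so that filter does not free it of the selection. Of all sums 42.7% were called in this comparison in either direction, and of the other nuclear tRF-1 sums 12 of 20 rose and 0 fell (14 and 0 at an unadjusted p under 0.05). The change was larger than that of Gly-CCC in 3 of the 20 others and larger than those of Gly-TCC and of Gly-GCC in 4. The value for Gly-CCC averages D3 with days at which it had almost no reads.

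At D0 Gly-TCC rose in NS-KO by 2.83 ± 0.56 on the log2 scale (adjusted p = 0.01922), and Gly-GCC had 0.51 (adjusted p = 0.5628). At D0 14.6% of all sums were called. The 42 reads of Gly-TCC in NS-KO against 4 in WT gave a ratio of 38.1 by library total (exact interval 13.8 to 146). The fitted log2 change was 3.83 without TMM factors and 3.52 with 0.5 in place of 2 reads added before the log was taken. The call for Gly-TCC at D0 was lost with any 1 of the 4 D0 libraries left out (adjusted p = 0.05259 to 0.1159).

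At D3 Gly-GCC rose in NS-KO by 2.48 ± 0.54 (adjusted p = 0.00587), while Gly-TCC had 1.12 ± 0.56 (adjusted p = 0.173). Gly-GCC had passed the main filter in NS-KO libraries only. With the filter on total reads alone it had 2.46 (adjusted p = 0.006689). Gly-CCC had 4.59 ± 0.58, given with no p because 173 of its 180 reads lay in the NS-KO D3 libraries that carried it through the filter. The D3 comparisons of Gly-CCC and Gly-GCC were added after their values had been seen. Among all sums 29.2% were called at D3, and among the other nuclear tRF-1 sums 7 of 20. The call for Gly-GCC was lost without NS-KO D3 replicate 2 (2.09 to 2.68 over all libraries left out in turn, adjusted p up to 0.08741). At D27 no glycine sum passed, with 0.96 for Gly-TCC (adjusted p = 0.2757) and 1.30 for Gly-GCC (adjusted p = 0.1213), and 1 of 3 was below 0.05 unadjusted, where 13.2% of all sums were called. Gly-CCC had no read in any D27 library and is not compared there.

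In WT livers Gly-TCC trailers had 22 and 11 reads at D3 (270 and 56.9 CPM), against 1 and 3 at D0 (3.75 and 18.6 CPM). The log2 change was 1.99 ± 0.56, which did not pass the adjustment (limma, adjusted p = 0.4804) in a comparison that called 0.356% of all sums. Pooled, 33 reads at D3 against 4 at D0 gave a ratio of 12.8 (exact interval 4.57 to 49.9). Of the 33 reads, 22 came from the smaller of the WT D3 libraries.

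Single genes were compared in a second fit of 304 sums, in which trailers were summed by the precursor they were listed under. In this fit Gly-CCC-2-1 and Gly-GCC-1-1 reached the level required for testing in the NS-KO D3 libraries only, Gly-GCC-2-8 and Gly-TCC-1-6 in NS-KO libraries only, and Gly-TCC-1-7 in 5 NS-KO libraries and 1 WT library. Over the 3 days the log2 fold change was 1.66 ± 0.32 for Gly-CCC-2-1 and 1.49 ± 0.29 for Gly-GCC-1-1. Both are given with no p because NS-KO D3 reads alone brought them into the fit. It was 1.40 ± 0.34 for Gly-TCC-1-6 (adjusted p = 0.007031), 1.25 ± 0.36 for Gly-TCC-1-7 (adjusted p = 0.01616) and 0.85 ± 0.30 for Gly-GCC-2-8 (adjusted p = 0.04193). With the filter on total reads alone Gly-TCC-1-6 had 1.37 (adjusted p = 0.0101) and Gly-TCC-1-7 had 1.24 (adjusted p = 0.02013). In this comparison 41.8% of all sums were called, and 21 of 41 trailers of other nuclear genes rose and 0 fell. The call of Gly-GCC-2-8 was lost in 8 of the 12 fits that left out 1 library, and with voom weights, a looser filter, the replicate block, reads outside tRF-5c as the library total, or reads from base 1 to 3 counted together (adjusted p = 0.05038 to 0.1041). The 4 glycine genes with fewer reads, and the 16 with none, were not tested.

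At D0 Gly-TCC-1-7 rose in NS-KO by 2.99 ± 0.62 (adjusted p = 0.01734), with 14.1% of all sums called. That call too was lost without each D0 library in turn (adjusted p = 0.08647 to 0.1253). Gly-TCC-1-6 had 1.76 at D0 (adjusted p = 0.06999). At D3 the estimate was 4.35 ± 0.55 for Gly-CCC-2-1 and 2.96 ± 0.50 for Gly-GCC-1-1. Both genes were in the fit through their NS-KO D3 reads alone, so these values only describe, with no p. The other 3 genes did not pass at D3, where 30.9% of all sums were called. Gly-TCC-1-6 had 0.99 (adjusted p = 0.2344), Gly-GCC-2-8 had 0.71 (adjusted p = 0.338) and Gly-TCC-1-7 had 0.45 (adjusted p = 0.6335). At D27 no glycine gene passed (3 of 5 below 0.05 unadjusted), against 5 of 41 others and 12.8% of all sums.

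**Figure D4:**
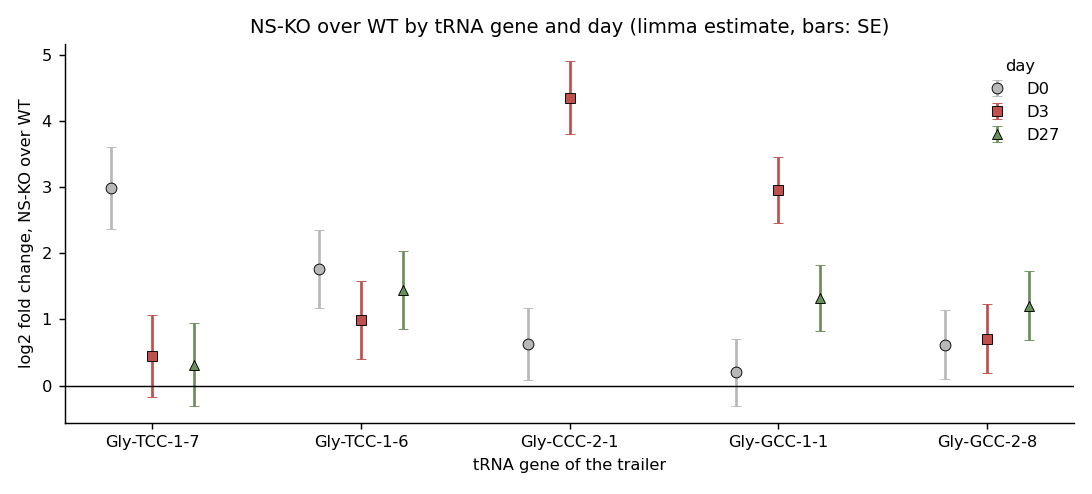
Log2 fold change of NS-KO over WT (vertical axis, limma estimate, bars 1 SE) for the trailers of the 5 glycine genes with at least 10 reads (horizontal axis) at D0 (circles), D3 (squares) and D27 (triangles). Gly-CCC-2-1 and Gly-GCC-1-1 are highest at D3 (4.35 and 2.96) and Gly-TCC-1-7 at D0 (2.99); Gly-CCC-2-1 has no triangle because it had no read at D27.

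The course in NS-KO livers was compared for the same genes. These comparisons were added after the values had been seen, and for Gly-CCC-2-1 and Gly-GCC-1-1 they too only describe. From D0 to D3 in NS-KO the estimate was 3.95 ± 0.55 for Gly-CCC-2-1, with 3.01 without NS-KO D0 replicate 1 and 4.95 without NS-KO D0 replicate 2, and 2.75 ± 0.50 for Gly-GCC-1-1. The other 3 glycine genes had -0.51 to -0.07 and did not pass, where 27.3% of all sums were called. The change from D0 to D3 in NS-KO minus that in WT was 3.72 ± 0.78 for Gly-CCC-2-1 (2.77 without NS-KO D0 replicate 1 and 4.71 without NS-KO D0 replicate 2) and 2.76 ± 0.71 for Gly-GCC-1-1 (2.30 to 3.27 with 1 library left out). Without NS-KO D3 replicate 1 neither gene reached the level required for testing in 2 libraries, so neither was in the fit. For Gly-TCC-1-7 it was -2.54 ± 0.87, which did not pass (adjusted p = 0.07126), where 13.2% of all sums were called.

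Reads of the same precursors outside the class were counted as well. Trailer reads that began at base 2 instead of base 1 are not listed as tRF-1, and there were 153 of them, from 5 glycine genes. Gly-GCC-1-1 had 60, of which 34 and 14 were in NS-KO D3 livers against 3 and 0 in WT D3 livers, 3 and 0 in NS-KO D0 against 1 and 1 in WT D0, and 3 and 1 in NS-KO D27 against 0 and 0 in WT D27. These base-2 reads, which the choice of sequences did not use, had the course of the tRF-1 reads of that gene. Gly-GCC-2-1, with 6 tRF-1 reads, had 58 base-2 reads, 22 and 10 of them in NS-KO D3 livers against 8 and 2 in WT D3 livers. Gly-TCC-1-6 had 21, with 6 and 2 in NS-KO D3 livers against 3 and 1 in WT D3, but 1 and 1 in NS-KO D27 against 4 and 1 in WT D27. Gly-GCC-2-8 had 9, with 0 and 1 in NS-KO D0 livers against 2 and 1 in WT D0, and 2 and 0 in NS-KO D3 against 1 and 2 in WT D3. The base-2 reads of Gly-TCC-1-6 and Gly-GCC-2-8 thus did not repeat the course of their tRF-1 reads. Gly-GCC-2-6 had 5. A further 10 reads began at base 1 but were listed as Other, 7 of them of Gly-CCC-3-1, with 3 and 3 in NS-KO D3 livers against 0 and 0 in WT D3 livers.

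With all reads from base 1 to 3 counted as trailers, the estimate for Gly-GCC-1-1 was 1.86 over days, 3.35 at D3 and 1.92 at D27. Gly-GCC-2-1 then had enough reads to be tested, in both genotypes, and rose over days by 1.14 ± 0.34 (adjusted p = 0.02236), with 1.29 at D3 (adjusted p = 0.132). Whether base-2 starts are a second cleavage site or loss of the first base was not tested.

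Further reads lay in a leader or spanned an end of the tRNA, and those that span an end come from precursors not yet cut there. Under single glycine genes there were 183 reads in the leader or across the 5′ end, from 21 genes, and 115 across the 3′ end, from 17 genes. The leader and 5′ end reads numbered 18 in NS-KO D0 livers against 28 in WT D0, 85 in NS-KO D3 against 33 in WT D3 and 10 in NS-KO D27 against 9 in WT D27. Those across the 3′ end numbered 30 in NS-KO D0 livers against 16 in WT D0, 41 in NS-KO D3 against 10 in WT D3 and 7 in NS-KO D27 against 11 in WT D27. Genes differed among themselves. All 7 leader and 5′ end reads of Gly-CCC-2-1 (5 and 2) and all 11 reads of Gly-TCC-1-2 across the 3′ end (5 and 6) were in NS-KO D3 libraries, genes named after their counts had been seen. Of 21 leader and 5′ end reads of Gly-GCC-3-1, in contrast, 20 were in WT libraries. Gly-GCC-2-8 had 26 reads across the 3′ end, 7 and 6 of them in NS-KO D0 livers against 3 and 1 in WT D0 livers. These counts were not tested, and libraries differ in depth.

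The mature tRNA of Gly-CCC-2-1 could be followed too, because its 5′ part differs from those of the other glycine tRNAs. The first 30 bases are shown for 4 mature glycine tRNAs, with differences from Gly-GCC-2-1 in capitals.
Gly-CCC-2-1: gcattggtAgttcaAtggtagaattctcgc
Gly-CCC-3-1: gcattggtggttcaAtggtagaattctcgc
Gly-GCC-1-1: gcatGggtggttcagtggtagaattctcgc
Gly-GCC-2-1: gcattggtggttcagtggtagaattctcgc
With positions counted from 1 at the 5′ end and the base of the tRNA named first written first, Gly-CCC-2-1 differs from Gly-GCC-2-1 by A9G and A15G and from Gly-CCC-3-1 by A9G, and Gly-GCC-1-1 differs from Gly-GCC-2-1 by G5T. Reads were aligned with up to 1 mismatch, so a fragment of a neighbouring tRNA that carries an error at such a base can be listed under the wrong one.

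The 5′ fragments listed under Gly-CCC-2-1 alone shared the NS-KO D3 peak of its trailer. Over days, unlike the trailer, they were not higher in NS-KO (-0.45 ± 0.39, limma, adjusted p = 0.3567). These fragments, of class tRF-5c, had 25966 and 14812 CPM in NS-KO D3 livers, against 969.1 and 2162 CPM in WT D3 livers. NS-KO D0 livers had 522.5 and 383.5 CPM and WT D0 livers 743.5 and 786.5 CPM. NS-KO D27 livers had 1001 and 469.5 CPM and WT D27 livers 3180.0 and 2827 CPM, so NS-KO was the lower at both other times. The fit of 335 sums with 5′ fragments by mature tRNA was added after these values had been seen. It gave a rise in NS-KO at D3 of 3.98 ± 0.67 (adjusted p = 0.001581), where 26% of all sums were called, and a rise from D0 to D3 in NS-KO of 6.03 ± 0.67 (adjusted p = 0.0002769), where 23.6% were called. The change from D0 to D3 in NS-KO minus that in WT was 5.97 ± 0.95 (adjusted p = 0.006761), where 13.1% were called. The D3 difference rested on the WT D3 libraries in its size, with 2.78 without WT D3 replicate 1 and 5.14 without WT D3 replicate 2. Counting exact matches only, the levels at D3 were 10310 and 6008 CPM in NS-KO, against 466.2 and 879.1 CPM in WT. The longer 5′ fragments of the same tRNA that end in the anticodon loop, class tiRNA-5, rose in NS-KO at D3 by 5.11 ± 1.04 (adjusted p = 0.004663), with 3.36 without WT D3 replicate 1 and 6.81 without WT D3 replicate 2.

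The 5′ fragments of Gly-GCC-1-1 rose from D0 to D3 in NS-KO as well. Its own tRF-5c fragments had 55774 and 30285 CPM in NS-KO D3 livers, against 19334 and 29823 CPM in WT D3 livers. NS-KO D0 livers had 7795 and 6072 CPM and WT D0 livers 24425 and 22646 CPM. They rose from D0 to D3 in NS-KO by 3.23 ± 0.61 (adjusted p = 0.003574), and the change from D0 to D3 in NS-KO minus that in WT was 4.07 ± 0.86 (adjusted p = 0.01576), which was lost without NS-KO D0 replicate 2 (adjusted p = 0.07439) or WT D0 replicate 1 (adjusted p = 0.05637). The difference at D3 itself, 1.02 ± 0.61, did not pass (adjusted p = 0.257), and it was 0.07 without WT D3 replicate 1 (adjusted p = 0.9476) and 1.93 without WT D3 replicate 2 (adjusted p = 0.02214). At D27 they had 15285 and 11562 CPM in NS-KO livers, against 47483 and 55387 CPM in WT livers.

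**Figure D5:**
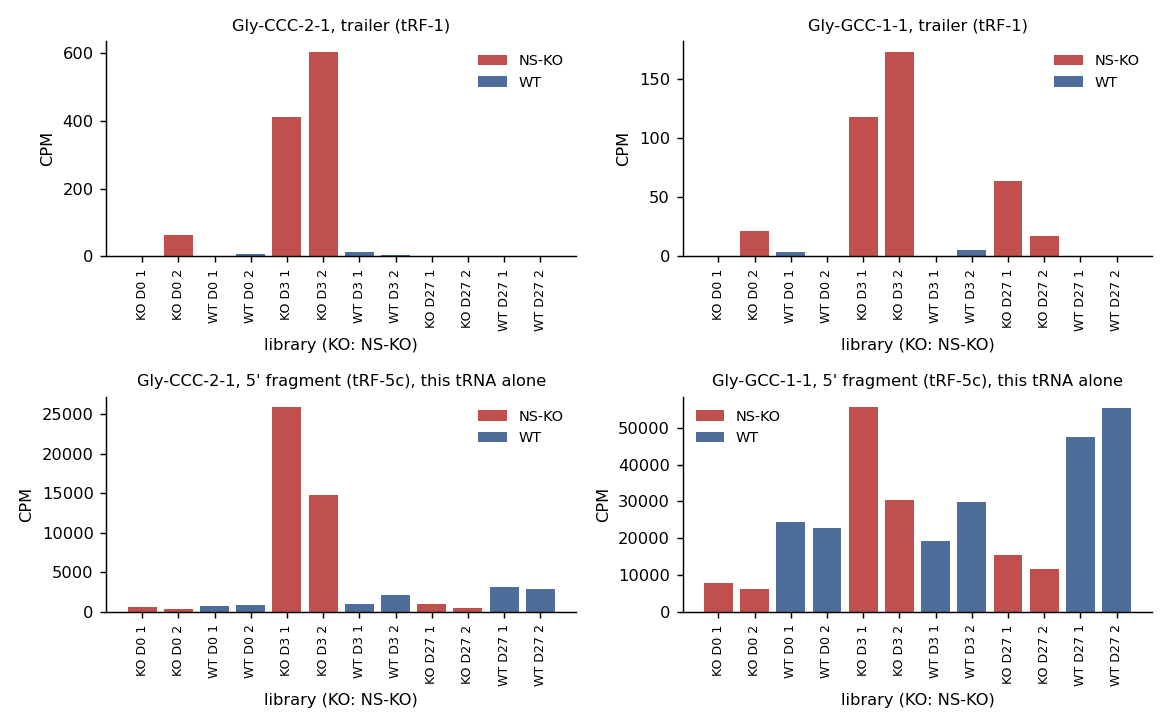
CPM (vertical axis, scale differs between panels) of trailers (upper row) and of tRF-5c fragments listed under the same tRNA alone (lower row) for Gly-CCC-2-1 (left) and Gly-GCC-1-1 (right) in each library (horizontal axis, red NS-KO, blue WT). For Gly-CCC-2-1 both rows peak in the NS-KO D3 libraries (411 and 605 CPM above, 25966 and 14812 CPM below), while tRF-5c of Gly-GCC-1-1 is as high in WT D27 livers (47483 and 55387 CPM) as in NS-KO D3 livers (55774 and 30285 CPM).

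The bulk of glycine 5′ fragments was lower in NS-KO than in WT livers. Those tRF-5c reads that several glycine tRNAs share had 69499 to 133351 CPM in NS-KO libraries, against 272122 to 582986 CPM in WT libraries, without overlap. For those of Gly-CCC-5-1, Gly-GCC-2-1, Gly-GCC-3-1 and Gly-GCC-4-1 the difference at D3 was -1.67 ± 0.72 (limma, adjusted p = 0.1212). Their change from D0 to D3 in NS-KO minus that in WT was 2.43 ± 1.02 (adjusted p = 0.1428). Neither passed, and the direction of that course was not particular to Gly-CCC-2-1 and Gly-GCC-1-1. By isodecoder, tRF-5c fell in NS-KO over days by 2.67 on the log2 scale for Gly-TCC (SE 0.34, adjusted p = 0.0003266) and by 1.85 for Gly-GCC (SE 0.37, adjusted p = 0.003367). Fragments from the 3′ end of Gly-TCC, class tRF-3a, fell by 1.66 (SE 0.26, adjusted p = 0.0009621). Trailers of Gly-TCC and Gly-GCC genes were therefore higher in NS-KO livers while fragments of their mature tRNAs were lower.

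Among the 20 other nuclear tRF-1 sums, those whose log2 CPM over the 12 libraries was most like that of all glycine trailers were Ile-AAT (Pearson r = 0.949), Val-CAC (r = 0.944) and Asp-GTC (r = 0.907). Their Spearman rho were 0.916, 0.937 and 0.888. Without both NS-KO D3 libraries, which lay farthest from the median, r was 0.862, 0.868 and 0.732. The points share libraries and depth, and they were picked as the highest of 20, so these values only describe. Over days the log2 fold change of NS-KO over WT was 2.07 ± 0.16 for Ile-AAT, 1.74 ± 0.27 for Val-CAC and 2.57 ± 0.28 for Asp-GTC, against 1.43 to 1.77 for the glycine sums.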

How the data were processed

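Reads of 12 mouse liver libraries were trimmed with cutadapt, checked with FastQC and aligned with Bowtie by the authors, with 1 mismatch allowed, to mature and then precursor tRNAs. Versions are not given in the sources used here. As deposited, each distinct sequence has a read count, always whole, per library, in blocks by tRNA. Text lines inside the blocks kept its columns from being recorded as counts, so limma was used in place of the count model that the study's methods name. Each sequence was counted once. All 193113 counts equalled those in the 12 libraries' own files.

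Counts were summed by class and isodecoder, or for trailers by precursor. Sums were kept that reached 70.4 CPM, which is 10 reads at the median library size, in at least 2 libraries and had 15 reads in all. Smaller libraries thus reached that level with fewer reads, as Gly-GCC did with 8 in NS-KO D0 replicate 2. Log2 CPM (2 reads added, TMM factors of 0.429 to 1.83 written in Python 3.11.15 and R 4.3.3) were fitted with limma 3.58.1 with a trend, 1 mean per group, all 12 libraries sharing 1 spread. p-values were Benjamini-Hochberg adjusted over all sums of a fit, at 0.05. On simulated counts 90 of 90 changes of 4-fold were recovered over days among 281 sums, with 5 false calls, at a dispersion of 0.1. At a dispersion of 0.2 it was 87 of 90, with 7 false calls. The changed sums were drawn from all 281, so recovery for sums with few reads was not tested apart. Shares were compared by exact permutation of genotype within days. Glycine genes with at least 10 trailer reads, the 10 sequences with most reads and the 3 most alike other sums were named. Members and lists were chosen with earlier results of these data known. Locations come from RefSeq, GRCm38.p6.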

Additional observations from a re-analysis of the deposited data

Results flagged for a closer look

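A pair of trailers and the 5′ fragments of the same tRNAs changed differently from D0 to D3 in NS-KO and in WT livers, in comparisons added after the values had been seen. On the log2 scale the change in NS-KO minus that in WT was 3.72 for the trailer of Gly-CCC-2-1 and 2.76 for that of Gly-GCC-1-1. Both trailers were in the fit through their NS-KO D3 reads alone, so these values only describe, with no p. For Gly-GCC-1-1 the value was 2.49 with reads outside tRF-5c as the total. It was 2.30 to 2.54 without NS-KO D0 replicate 1, NS-KO D3 replicate 2, WT D0 replicate 1 or WT D3 replicate 1.

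For tRF-5c, whose fragments of both tRNAs were read in all 12 libraries, the same difference was 5.97 for Gly-CCC-2-1 (adjusted p = 0.006761) and 4.07 for Gly-GCC-1-1 (adjusted p = 0.01576). It ran from 4.77 without WT D3 replicate 1 to 7.12 without WT D3 replicate 2 for Gly-CCC-2-1. For Gly-GCC-1-1 the call was lost without NS-KO D0 replicate 2 (3.79, adjusted p = 0.07439) or WT D0 replicate 1 (3.75, adjusted p = 0.05637).

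Among reads outside the trailer class, the NS-KO D3 libraries held all 7 reads of Gly-CCC-2-1 in the leader or across the 5′ end of the tRNA, and all 11 reads of Gly-TCC-1-2 across the 3′ end. Other genes with more such reads did not share this, and 20 of 21 leader and 5′ end reads of Gly-GCC-3-1 were in WT libraries.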

How the results depend on the processing

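The rise of the 3 isodecoder sums over days and the rise of both shares kept direction and side of the threshold under all settings in which they could be computed, with 1 exception. With sequences of at least 16 nt only, the difference in the share of tRF-1 reads was 0.18 points (exact permutation p = 0.06481), and the Gly-TCC and Gly-CCC sums had too few reads to be tested. For Gly-CCC these settings only describe, because its NS-KO D3 reads carried it through the filter. Scaling by library size alone gave calls for Gly-TCC at D27 (2.18, adjusted p = 0.006976) and for WT D3 over WT D0 (2.56, adjusted p = 0.03232). It moved the median of all sums over days to 0.84, against 0.12 with TMM and -0.18 with reads outside tRF-5c as the total, and the share of calls that were higher in NS-KO to 88.9%, against 55% and 34.7%. The glycine sums stayed above these medians over days. Gly-TCC-1-7 at D3 turned to -0.06 with reads outside tRF-5c and to -0.12 without WT D3 replicate 2. Leaving out 1 library at a time gave 2.41 to 3.43 for Gly-TCC at D0, 2.09 to 2.68 for Gly-GCC at D3 and 2 to 5 called glycine genes. The lowest count was without NS-KO D3 replicate 1, when Gly-CCC-2-1 and Gly-GCC-1-1 no longer reached the level required for testing in 2 libraries. With all libraries kept, both genes were tested through their NS-KO D3 reads alone. The filter thus partly fixed the upper end of the count of called genes, which only describes. Over days 41.8% of all sums were called in the fit with all libraries. Added after seeing the data were the D3 comparisons of Gly-CCC and Gly-GCC, the comparisons of single genes by day and base 1 to 3 starts. So were 5′ fragments, both shares without Gly-CCC-2-1 and Gly-GCC-1-1, and reads outside tRF-5c as the total for single genes. At 6 to 178 reads per library, depth limits all values.

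The labels do not say whether same-numbered libraries belong together. Their deviations correlated from -0.295 to 0.5 over 15 pairs of groups, 4 of them above 0.1. With 2 libraries per group this cannot settle whether they were paired. With the replicate block Gly-TCC had 1.64 ± 0.34 over days (limma, adjusted p = 0.006562) and Gly-GCC 1.43 (adjusted p = 0.009577). Gly-CCC had 1.77, with no p because its NS-KO D3 reads carried it through the filter. For single genes the block gave 1.40 for Gly-TCC-1-6 (limma, adjusted p = 0.01066) and 1.25 for Gly-TCC-1-7 (adjusted p = 0.02309). Gly-GCC-2-8 had 0.85 and did not pass (adjusted p = 0.0564). The estimates for Gly-CCC-2-1 and Gly-GCC-1-1 were 1.66 and 1.49, with no p because NS-KO D3 reads alone brought them into the fit.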
